A study of Bos taurus with 8 samples.

Results

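The microRNAs (miRNAs) bta-miR-204 and bta-miR-211 (miR-204 and miR-211 below; bta stands for cattle) were followed across the mammary glands of 8 heifers. They are 2 of the 763 bovine miRNAs on the array, and were taken by their names in the array annotation and in the deposited value table. The former was chosen by its log2 difference between the breeds on these same arrays, the largest increase in Limousin. Its breed values are therefore a description and carry no test. The other miRNA, miR-211, was added because it has the same seed, not for its values. The study compared 4 Holstein-Friesian heifers, a dairy breed, with 4 Limousin heifers, a beef breed, all healthy and not pregnant. Mammary tissue was taken at a slaughterhouse, and total RNA of each animal, called a biological replicate in the labels, was labelled and put on its own one-colour array. No animal was treated. The age was given both as 20 months and as 2 years. Whole tissue was used, so that fewer cells of a type and less miRNA per cell cannot be told apart.

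A miRNA guides the silencing complex to messenger RNAs through its seed, the short stretch near its 5′ end, and miRNAs that share a seed share most of their predicted targets. In mammals miR-204 is made from an intron of TRPM3, and miR-211 from an intron of TRPM1, both genes of melastatin-type cation channels. Both are known from the retinal pigment epithelium, and miR-211 from melanocytes. Both have been described as repressors of RUNX2, the transcription factor of bone formation, and miR-204 as favouring fat over bone in mesenchymal precursors. In RefSeq's gene table of ARS-UCD2.0 the bovine MIR204 gene lies inside the span of TRPM3 and the MIR211 gene inside that of TRPM1.

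The probes show what the array can tell apart. Array probes are antisense to the miRNA and pair with a stretch of it, which was not placed on the mature sequence here. They are given 5′ to 3′, as in the scanner files. The capital marks the only base at which the probes of the 2 miRNAs differ where they can be laid side by side.
miR-204, 19 bases: aggcaTaggatgacaaagg
miR-204, 20 bases: aggcaTaggatgacaaaggg
miR-211, 15 bases: ggcaAaggatgacaa
miR-211, 16 bases: ggcaAaggatgacaaa
miR-211, 17 bases: ggcaAaggatgacaaag
Counted from 1 at the 5′ end of the miR-204 probes, the 3 miR-211 probes carry T6A, with the miR-204 base first. The stretch of miR-204 that the longer probe pairs with is ccctttgtcatcctAtgcct, in DNA letters, and that of miR-211 for its longest probe is ctttgtcatcctTtgcc. Each shorter probe of a miRNA lies wholly inside the longer ones, so the probes are not independent measurements. Of the other 1652 probes on the array, those of 14 bases or more were laid beside the 20-base miR-204 probe. This was done without gaps, over at least 14 bases, and shorter probes were not compared. Among the probes compared 1, a probe of miR-2488, came within 4 mismatches. Probes close to those of miR-211 were not searched for.

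The array annotation, in UMD 3.1, places the 20-base miR-204 probe on chromosome 8 from 47259564 to 47259582 and the 19-base probe from 47259565 to 47259582. It places the 17-base miR-211 probe on chromosome 21 from 28046439 to 28046454. All are listed from the higher to the lower coordinate. Each annotated span is 1 base shorter than its probe, for example 19 positions for the 20-base probe. The 20-base probe has a GC content of 50% and the miR-211 probes have 43.8% to 47.1%.

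Signal of miR-204 was present on every array, and was higher on all 4 Limousin arrays than on any Holstein-Friesian array. Before any scaling between arrays, the 20-base probe had a mean spot signal of 131, 91.3, 193 and 122 in Holstein-Friesian replicates 1 to 4. In Limousin replicates 1 to 4 it had 1423, 1509, 841 and 1298. The lowest Limousin array was thus well above the highest Holstein-Friesian one. The 19-base probe gave 65.8, 46.0, 90.9 and 61.0 in Holstein-Friesian and 732, 780, 460 and 661 in Limousin. It kept the same order of arrays in Holstein-Friesian and in Limousin as the longer probe.

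Each miR-204 probe was printed as 30 spots per array, and the separation held spot by spot. After outlier spots were left out, all 227 spots of the 19-base probe and all 235 of the 20-base probe were well above background. The highest Holstein-Friesian spot of the 20-base probe reached 223 over the 4 arrays, and the lowest Limousin spot was 710. For the 19-base probe these values were 104 and 417. The spread between spots of a probe on one array, as a coefficient of variation, was 4.97% to 9.43% for the 20-base probe and 3.17% to 15.6% for the 19-base probe. No miRNA spot was saturated on any array.

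No spot kept for miR-211 was well above background in either breed. Its 3 probes had 20 spots each per array, 480 in all over the 8 arrays. Of the 463 spots that were not outliers, 0 were well above background. The mean signal of a miR-211 probe on an array ran from -1.22 to 1.29 in Holstein-Friesian and from -0.82 to 1.02 in Limousin. The negative control spots of the same arrays had means between -1.19 and 0.25, with SDs between spots of 2.81 to 2.97. Array by array, the mean of the 17-base probe was above that of the negative controls on 8 of 8 arrays, by 0.35 to 1.94 signal units. The 16-base probe was above it on 7 of 8 and the 15-base probe on 5 of 8. This small offset of the 17-base probe was present in both breeds, by 0.44 to 1.92 in Holstein-Friesian and 0.35 to 1.94 in Limousin, and was noticed after the values were seen. It was not tested. Before outliers were left out, 6 of the 480 spots were well above background, all on Limousin arrays, and all 6 were among the 17 that the scanner software had marked as outliers.

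The miR-211 probes were not well above background on the Limousin arrays either, where miR-204 was high. The miR-211 probes differ from those of miR-204 in length as well as in the marked base, so the share of each in this separation was not tested. The absence of signal sets only a limit: on each array the lowest probe signal counted as detected was 10.5 to 29.9 in scaled units, and a smaller amount of miR-211 would not have been seen. All 8 of the deposited value table's miR-211 values stood at the value used for undetected miRNAs, and no breed fold is given for it.

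**Figure D1:**
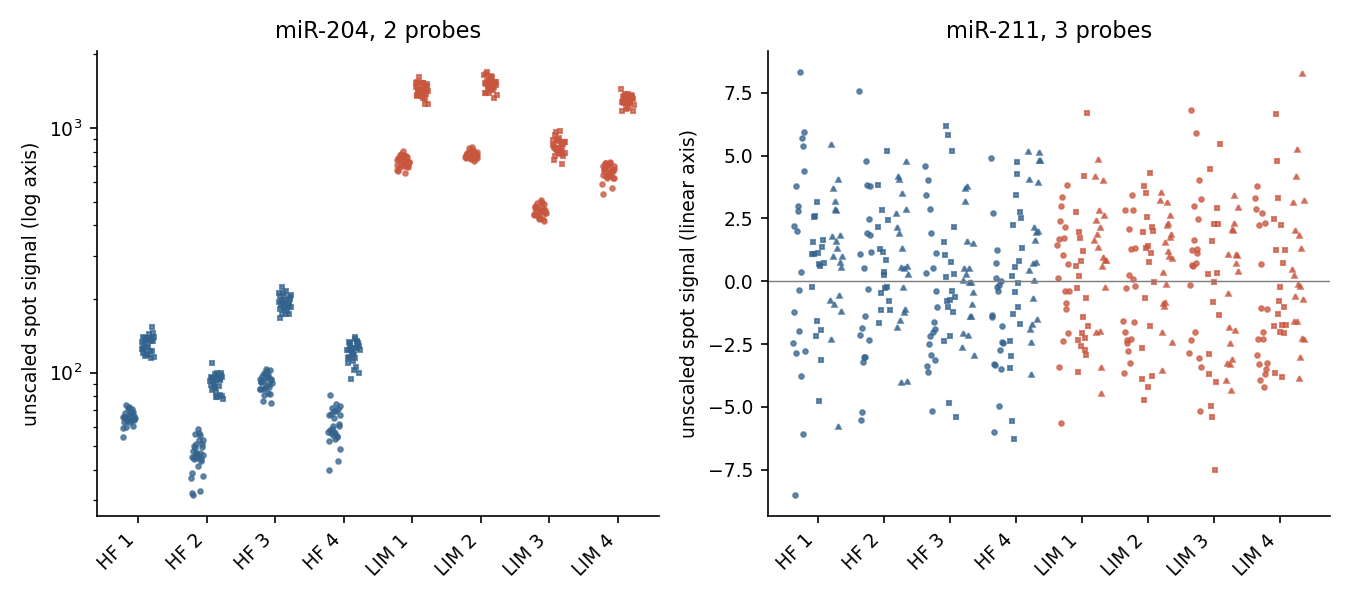
Unscaled signal of every spot that was not an outlier, by array, for the 2 probes of miR-204 (left, log axis; circles 19 bases, squares 20 bases) and the 3 probes of miR-211 (right, linear axis; circles 15, squares 16, triangles 17 bases). Holstein-Friesian (HF) spots are blue and Limousin (LIM) spots red; for each miR-204 probe the 2 breeds do not overlap, and the miR-211 spots lie around 0 in both, up to 8.33.

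The miRNA probes, though not the spiked control probes, were brighter as a group on the Limousin arrays, and scaling made the miR-204 difference smaller. The 75th percentile of the probes detected on all 8 arrays was 557 to 939 in Holstein-Friesian and 943 to 1579 in Limousin. Signals were divided by it and multiplied by its mean. A scaled value can be compared between arrays for the same probe only if that percentile is taken as equal on them. On the log2 scale the 20-base probe then read 7.64, 7.30, 7.62 and 7.56 in Holstein-Friesian and 10.18, 9.84, 9.74 and 9.97 in Limousin. Holstein-Friesian replicate 2 was lowest and Limousin replicate 1 highest, and the breeds did not overlap.

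The mean scaled log2 signal of miR-204 was 7.53 ± 0.16 (SD, n = 4) in Holstein-Friesian and 9.93 ± 0.19 (SD, n = 4) in Limousin. The difference, Limousin minus Holstein-Friesian, was 2.40 (SE 0.12), or 5.29-fold. With the 19-base probe it was 2.48 (SE 0.11), or 5.58-fold, so the probes gave nearly the same fold. Without scaling the same differences were 3.26 and 3.33. Over the 16 pairs of a Limousin with a Holstein-Friesian array, the fold ran from 4.29, between Limousin replicate 3 and Holstein-Friesian replicate 1, to 7.38, between Limousin replicate 1 and Holstein-Friesian replicate 2. The gap between the lowest Limousin and the highest Holstein-Friesian array was 2.10 on the log2 scale. Within a breed the arrays spanned 0.34 and 0.44.

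**Figure D2:**
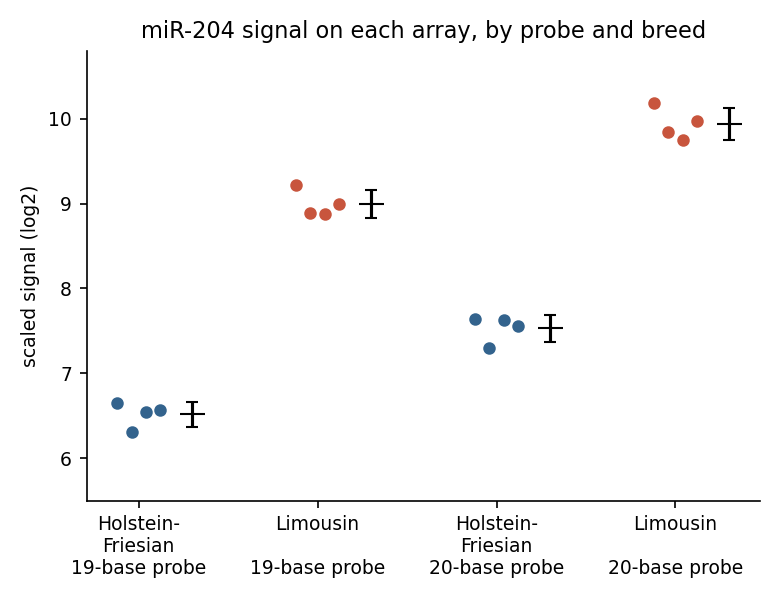
Scaled log2 signal of miR-204 on each array (points), by probe and breed, with the mean and SD of the 4 arrays beside them (black). For the 20-base probe the Holstein-Friesian arrays lie between 7.30 and 7.64 and the Limousin arrays between 9.74 and 10.18.

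The deposited value table, in which the authors had put total signal per miRNA on a log2 scale with a constant taken off each array, showed the same separation. Its miR-204 values were 1.29, 1.09, 1.33 and 1.28 in Holstein-Friesian and 4.20, 3.87, 3.80 and 3.95 in Limousin. The difference in that table was 2.71 (SE 0.10). Among the 232 miRNAs detected on all 8 arrays, the largest increase in the table was that of miR-204, and the next was miR-155 at 1.19. Among all 269 miRNAs tested here, which include ones set to the undetected value in one breed, it was number 10 in that table.

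Among the miRNAs of one array, miR-204 moved from near the middle of the order in Holstein-Friesian to nearer the top in Limousin. By scaled signal it ranked 130 of 259 detected miRNAs, 147 of 243, 128 of 267 and 134 of 254 in Holstein-Friesian replicates 1 to 4. In Limousin it ranked 59 of 272, 70 of 297, 72 of 271 and 67 of 284. Its rank was 135 ± 8.54 (SD, n = 4) and 67.0 ± 5.72 (SD, n = 4). Probes differ in how brightly they report their miRNA, so these ranks order signals and not amounts of miRNA.

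The 269 miRNAs that every array of one breed or of both detected were fitted together with limma, a linear model that shares information on the spread across miRNAs. Of these 42% passed a Benjamini-Hochberg adjusted p of 0.05, 13.8% higher in Limousin and 28.3% lower. The 4 Limousin and 4 Holstein-Friesian arrays did not overlap for 36.8%, and lay apart with Limousin higher for 16%. A separation of the breeds is thus common on these arrays. The size of the miR-204 difference set the choice of this miRNA and is given without a test. Next in order was miR-218, below background on all 4 Holstein-Friesian arrays, with a mean log2 signal of 3.36 there and 4.47 in Limousin. After it came miR-155 (0.95) and miR-146b (0.94).

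**Figure D3:**
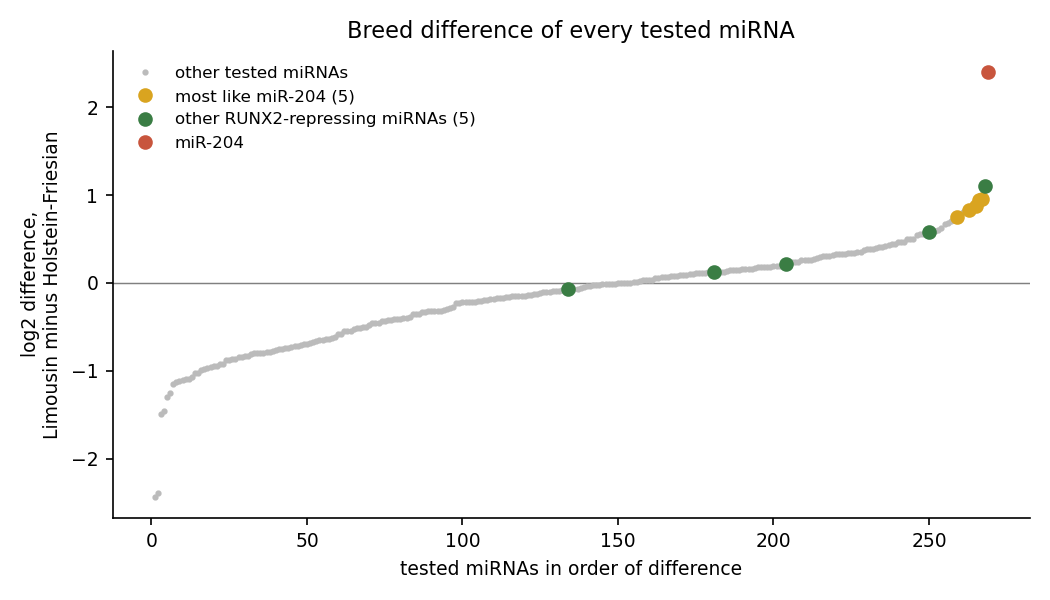
Breed difference (log2, Limousin minus Holstein-Friesian) of the 269 tested miRNAs in order of size. The red point is miR-204 at 2.40, yellow points are the 5 miRNAs with the most similar profile, and green points are the 5 tested miRNAs of the RUNX2 list, of which the highest, miR-218, was below background in Holstein-Friesian.

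The 5 miRNAs with the profile most like that of miR-204 were looked for among the 231 others detected on all 8 arrays. The measure was the root mean square difference over the 8 arrays between log2 profiles that were each centred on their own mean, where a smaller value means more alike. They were miR-155, at 0.74, miR-146b, at 0.75, miR-218_v13.0, at 0.78, miR-29b, at 0.81, and miR-101, at 0.85. Their own breed differences were 0.95, 0.94, 0.88, 0.84 and 0.76, all smaller than that of miR-204. With normexp, a model-based background correction, miR-155 was at 0.34, miR-146b at 0.53 and miR-218_v13.0 at 0.16, and the last no longer passed (limma adjusted p = 0.226). With probe GC content and length corrected for, miR-29b was at 0.49 and did not pass (limma adjusted p = 0.0749), miR-146b was at 0.61 and miR-101 at 0.50. Of these, miR-155 is known from activated lymphocytes and miR-146b from inflammatory signalling, miR-29b represses collagen genes, and miR-101 represses EZH2. The entry miR-218_v13.0 is an earlier database sequence of miR-218. Its values were 5.75, 5.83, 6.05 and 6.16 in Holstein-Friesian and 6.82, 6.80, 6.72 and 6.95 in Limousin.

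**Figure D4:**
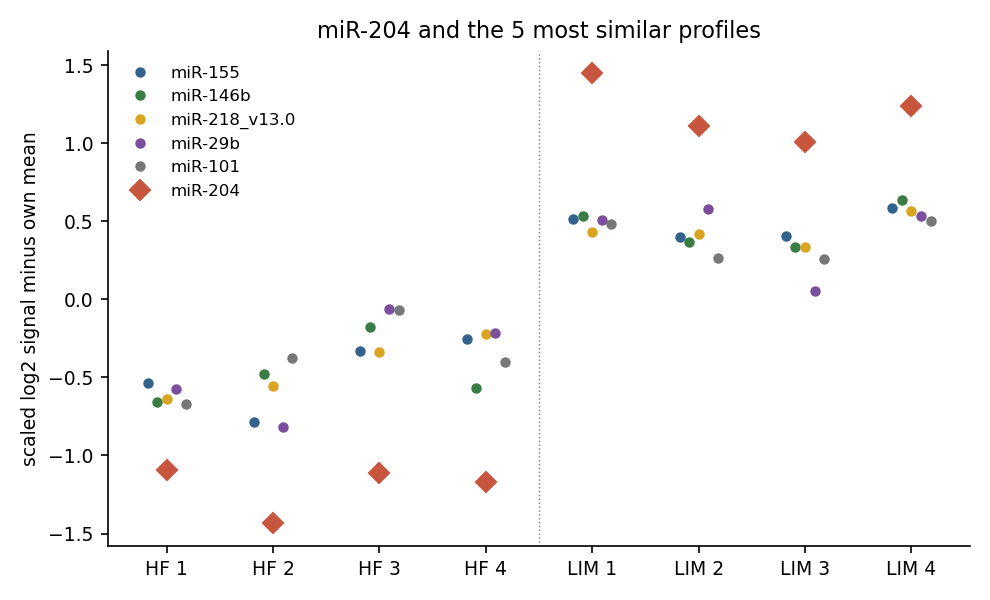
Scaled log2 signal of miR-204 and of the 5 most similar miRNAs on each array (4 Holstein-Friesian, HF, and 4 Limousin, LIM), each minus its own mean over the 8 arrays. All 6 lie lower on each Holstein-Friesian than on each Limousin array, and miR-204 is farthest from 0 on all 8 arrays.

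Other miRNAs described as repressors of RUNX2 were taken as the list nearest to the known function of the pair. All 10 were on the array, 4 were detected on no array (miR-34c, miR-135a, miR-137 and miR-217), and 5 were tested. In Limousin 2 of the 5 passed as higher, 0 as lower and 3 did not pass, and the median difference was 0.22 beside -0.07 over all tested miRNAs. Of all tested miRNAs 13.8% were higher, and with 5 members nothing is read from the list's share. One of the 2 was miR-338, a miRNA of nervous tissue and oligodendrocytes, with 5.24 ± 0.19 (SD, n = 4) in Holstein-Friesian and 5.82 ± 0.18 (SD, n = 4) in Limousin, a difference of 0.58 (SE 0.14; limma adjusted p = 0.0092). It was lost when probe GC content and length were corrected for (0.04; limma adjusted p = 0.800), and its sign changed without background correction and with normexp.

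The other was miR-218, which is made from introns of SLIT2 and SLIT3. It was well above background on 4 of 4 Limousin and 0 of 4 Holstein-Friesian arrays, and so entered the fit through Limousin alone. Its mean Limousin log2 signal, 4.47, was under the lowest signal counted as detected on Holstein-Friesian replicates 1, 2 and 4 (4.79, 4.90 and 4.82). No fold is therefore given, and no breed difference is read from this entry of miR-218. Under the same settings it passed as lower (-0.36 and -0.40), and no member of the list was then higher. The 3 that did not pass were miR-205, a marker of basal mammary epithelium, at 0.22 (limma adjusted p = 0.247), miR-23a at 0.13 (0.456) and miR-30c at -0.07 (0.637). Without scaling between arrays all 5 passed as higher, and the median of all tested miRNAs was then 0.79. With probe GC content and length corrected for, 3 members were higher, among them miR-205 and miR-23a. In the main fit the RUNX2 list thus had 1 member above background in both breeds that passed, miR-338. Its difference was much smaller than that of miR-204. The older entry miR-218_v13.0 was kept out of the list by its version suffix. That entry was detected on 4 of 4 arrays of each breed and was 0.88 higher in Limousin (limma adjusted p = 0.0012). In 2 of 25 other settings, normexp among them, miR-218_v13.0 did not pass. Leaving out any 1 array left the count of the list at 2.

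Markers of tissues in which miR-204 is known were looked at next. Over the whole array 60.7% of miRNAs were detected on no array. Of 13 array entries of the neural and eye list, 10 were detected on no array, among them miR-124a, both arms of miR-9, miR-137, miR-138, miR-183 and miR-184, a miRNA of the lens and cornea. The 3 tested members, miR-96, miR-182 and miR-128, did not pass. The summed scaled signal of these 3 was 318 to 454 in Holstein-Friesian and 389 to 468 in Limousin, so that the breeds overlapped. Of the kidney and gut list miR-215 and miR-196b were detected on no array. Of its 3 tested members, miR-194 was 0.72 higher in Limousin (SE 0.10, limma adjusted p = 0.0012), and at 0.14 and not past with normexp. For miR-196a the difference did not pass (0.44, limma adjusted p = 0.0757). The call of miR-192 came from a fit that it entered through detection in Limousin alone, and its sign changed without background correction. Its mean Limousin log2 signal, 4.53, was under the lowest signal counted as detected on Holstein-Friesian replicates 1, 2 and 4 (4.79, 4.90 and 4.82). No breed difference is read from miR-192. The 2 called members stand beside 13.8% higher over all tested miRNAs. The summed signal of the 3 was 134 to 165 in Holstein-Friesian and 216 to 270 in Limousin. Their part in the miR-204 difference was not tested.

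The labelled tissue was checked by mammary epithelial miRNAs. All 8 entries of that list on the array were tested and 1 passed, miR-375, which 0 of 4 Holstein-Friesian arrays detected. It entered the fit through Limousin alone. Its mean Limousin log2 signal, 4.27, was under the lowest signal counted as detected on every Holstein-Friesian array (4.33 to 4.90). No breed difference is therefore read from miR-375. Its sign turned with normexp (-0.48), without background correction (-0.46) and with a raised floor (-0.45). Its list's share of 12.5% higher was near the 13.8% of all tested miRNAs. The member with the next smallest p, miR-200c, had a difference of -0.17 (adjusted p = 0.225). The summed signal of the list was 18326 to 20787 in Holstein-Friesian and 19577 to 21442 in Limousin, with overlap. In the leukocyte list 5 of 8 tested members were higher, miR-155, miR-146b, miR-142-5p, miR-15a and miR-16b, and 0 were lower, or 62.5% beside 13.8% higher over all tested miRNAs. The median of the list was 0.44, and its summed signal was 4099 to 5502 in Holstein-Friesian and 5561 to 6794 in Limousin, without overlap, as for 36.8% of single tested miRNAs. This sum was not recomputed under other settings. The myeloid marker miR-223 (-0.15), the lymphocyte marker miR-150 (0.02) and miR-342 (-0.13) did not pass, and miR-142-3p and miR-146a were detected on no array. The part of leukocytes in the miR-204 difference was not tested.

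Of 12 tested stromal fibroblast entries 3 were higher and 0 lower, 25% beside 13.8% higher over all. All 3 were miR-199 entries, and the median of the list was 0.02 beside -0.07 over all tested miRNAs. Of the 3, miR-199b was at 0.59 (limma adjusted p = 0.0088) and miR-199a-3p at 0.47 (0.0115). Neither passed once the GC content and length of probes were corrected for (adjusted p = 0.197 and 0.0513). Of 10 tested adipocyte entries 1 was higher and 2 lower, 10% and 20% beside 13.8% and 28.3% over all. The first was miR-27b, at 0.36 (limma adjusted p = 0.0206), which did not pass without Holstein-Friesian replicate 4, Limousin replicate 1 or Limousin replicate 4. The lower ones were miR-193a-5p, at -0.67 (0.0072), and miR-365-3p. The sign of miR-193a-5p changed without scaling, and it did not pass with GC content and length corrected for (-0.08; limma adjusted p = 0.530), with quantile normalization (0.0556) or with the 75th percentile over all probes (0.0567). In the endothelial list 1 of 5 passed, as higher, or 20% beside 13.8% higher over all tested miRNAs. That member was the miR-218 entry detected in Limousin alone, and miR-126-5p had 0.41 (limma adjusted p = 0.0779). The single tested entries of the erythroid and skeletal muscle lists, miR-451 at -0.35 (adjusted p = 0.544), which was at 0.13 without Holstein-Friesian replicate 2 and at 0.51 without scaling, and miR-1 at 0.26 (0.486), did not pass. Detected on 2 of 4 Holstein-Friesian and 4 of 4 Limousin arrays, miR-1 entered the fit through Limousin alone. Muscle markers miR-206, miR-208b and miR-499 were detected on no array. The others, not tested, were miR-133a, detected on 1 Limousin array, and miR-133b, detected on 1 Holstein-Friesian and 2 Limousin arrays.

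The miR-204 difference was then recomputed under 25 other settings of the processing. It stayed between 1.96 and 3.26, and in all 25 the Limousin arrays lay above the Holstein-Friesian arrays. When 1 array at a time was left out it ran from 2.32 to 2.47. All arrays lay on 1 slide. By the scanner's numbering of places on it, the Holstein-Friesian arrays had 1 and the Limousin arrays 2 as their first position number, and the place on the slide and the breed cannot be told apart. The spiked control probes, with mean log2 signals of 12.58 to 12.80 in Holstein-Friesian and 12.66 to 12.78 in Limousin, overlapped between the breeds.

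**Figure D5:**
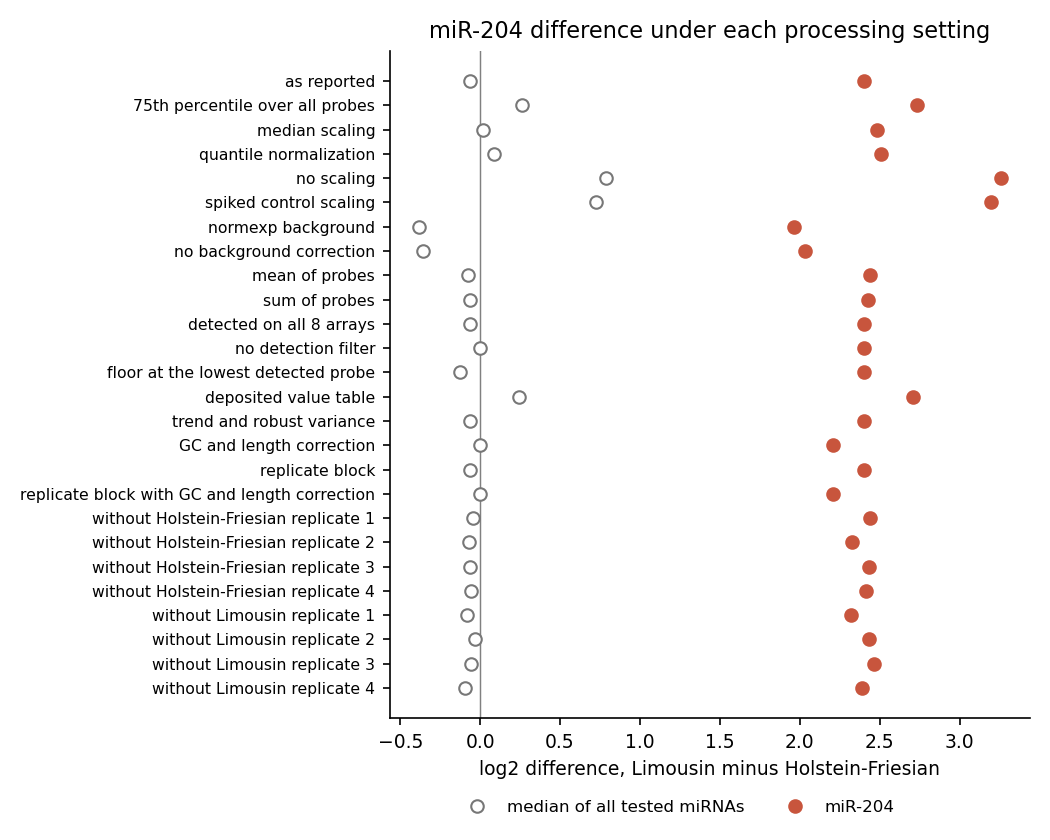
Breed difference of miR-204 (red) and the median difference of all tested miRNAs (open) on the log2 scale, as reported and under 25 other processing settings. The miR-204 value runs from 1.96 to 3.26 and moves with the median of all miRNAs when the scaling or the background setting is changed.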

How the data were processed

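The scanner software was Agilent Feature Extraction 10.10.1.1, per the file headers. The deposited spot intensity had a spatially fitted background subtracted by the authors' software and no scaling between arrays. The deposited value table holds log2 values. Their scale was not stated and was read from the values: each column equals the log2 of the scanner's total signal per miRNA, with 0.1 for undetected ones, minus a constant, to within 9.7e-06. Column medians ran from -9.79 to -8.53. Rows were not centred. The deposited flags (other columns) marked outlier, saturated and well-above-background spots.

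Spots of a probe were averaged without outliers. A probe was detected when over 50% of its used spots passed the well-above-background flag. Signals were scaled by the 75th percentile over 429 probes, values under 1 were set to 1, and each miRNA took its brightest probe. Breeds were compared in limma 3.58.1 (R 4.3.3), fitting breed alone, at a Benjamini-Hochberg adjusted p of 0.05. The number of arrays limits the precision. The fit was tested on simulated data. Members and lists were chosen with earlier results of these data known. Named are both members, the tested RUNX2 list, the 5 most similar miRNAs and, per marker list, the 2 tested members with the smallest p. Other list members, and the next increases in order, were named after their values were seen. Mature sequences were not used here, so shared seeds were not searched for. The pairing of replicate numbers was not borne out (closing section).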

Additional observations from a re-analysis of the deposited data

Results flagged for a closer look

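In 50 groups of 4 arrays, over the 24 tested miRNAs that were named by rule and the second miR-204 probe, 2 held an array far from the other 3, and chance gives about 1 in 20 such groups (5%). Limousin replicate 3 had a scaled log2 signal of miR-29b of 11.04, where the other Limousin arrays had 11.49 to 11.56. Holstein-Friesian replicate 3 had 4.02 for miR-192, which was below background there. No miR-204 value was among them.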

How the results depend on the processing

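The difference of miR-204 (2.40) was 2.73 with the 75th percentile over all probes, 3.26 without scaling, 3.19 with spiked control scaling, 1.96 with normexp background, 2.03 without background correction, 2.71 in the deposited value table, and 2.21 with the GC and length correction, with or without the replicate block. Leaving out an array gave 2.32 to 2.47. In the other settings it moved by less than the SD between arrays. The median of all tested miRNAs moved as well, to 0.79 without scaling and 0.73 with spiked control scaling.

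Counts of miRNAs higher and lower (37 and 76) were 104 and 30 with the 75th percentile over all probes, 56 and 45 with quantile normalization, 172 and 2 without scaling, 172 and 3 with spiked control scaling, 26 and 145 with normexp background, 27 and 142 without background correction, 81 and 28 in the value table, and 47 and 31 with the GC and length correction. Without 1 array they ran from 24 to 56 and from 47 to 92: 56 higher without Holstein-Friesian replicate 2, 24 without Limousin replicate 1 and also without Limousin replicate 4, and lower 48 without Holstein-Friesian replicate 4 and 47 without Limousin replicate 1. The 2 called members of the RUNX2 list became 4 (75th percentile over all probes, value table) or 5 (no scaling, spiked control scaling). With the GC and length correction, with or without the replicate block, 3 were called, all higher. Detection on all 8 arrays and the floor raised to the lowest detected probe each left 1, higher. With normexp and with no background correction 0 were higher and the 1 called was miR-218, lower. Without the detection filter, with all 10 members fitted, 2 were higher and 1 lower. When 1 array was left out the called members stayed at 2 (2 to 2).

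The sign turned with normexp and without background correction for miR-218 (-0.40, -0.36), miR-192 (-0.43, -0.38), miR-375 (-0.48, -0.46), miR-338 (-0.19, -0.13), miR-182 (-0.11, -0.087) and miR-1 (-0.43, -0.40). With the raised floor it turned for miR-218 (-0.25), miR-192 (-0.18) and miR-375 (-0.45). Without scaling and with spiked control scaling it turned for miR-193a-5p (0.19, 0.12), miR-200c (0.68, 0.62), miR-451 (0.51, 0.44) and miR-30c (0.78, 0.72). With the 75th percentile over all probes and in the value table it turned for miR-200c (0.16, 0.077) and miR-30c (0.26, 0.18), and for miR-30c with median scaling (0.0089) and quantile normalization (0.016). With the GC and length correction, with or without the replicate block, it turned for miR-1 (-0.12), miR-182 (-0.034), miR-200c (0.15) and miR-96 (-0.12). Without Holstein-Friesian replicate 1 miR-182 was at -0.00079, and miR-451 ran from -0.61 without Holstein-Friesian replicate 4 to 0.13 without Holstein-Friesian replicate 2. The cause was not tested.

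Same-numbered arrays of the breeds did not deviate together in 3 of 4 pairs (correlations of deviations -0.30, -0.25, -0.45 and 0.31). Only for replicate 4 was the best partner the array of the same number. A pairing of the animals was thus not borne out, but 4 pairs are too few to exclude it. The replicate number was also the second position number of the array on the slide. A block on replicate is thus also a block on that position, and these cannot be told apart. With the replicate block the miR-204 difference was 2.40, miR-27b no longer passed (limma adjusted p = 0.0973), 25 miRNAs were higher and 59 lower, and with the block and the GC and length correction 37 and 24. A miR-211 difference was not read in any setting, since it was below background on every array. Signal over background limits what can be said of the miRNAs not detected in Holstein-Friesian.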
